A study of Mus musculus with 2 samples.

Results

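The 10 genes described here encode the cyclins, cyclin-dependent kinases (CDKs) and CDK inhibitors that govern passage through the G1 phase of the cell cycle. They were chosen by symbol, and all 10 were found among the 43346 genes of the tables. They are the D-type cyclins Ccnd1, Ccnd2 and Ccnd3, the E-type cyclins Ccne1 and Ccne2, the kinases Cdk2, Cdk4 and Cdk6, and the inhibitors Cdkn1b (p27) and Cdkn2c (p18). The data are total RNA sequencing of G1E, an immortalized erythroid progenitor line labelled as lacking Gata1 (strain C57BL/6J, male, postnatal, age 0 day). Replicates 1 and 2 are biological replicates, each prepared from 1 ng of RNA, with no added agent named in the labels. With 1 group and no control samples, the text gives levels, and it sets one library against the other. Nothing in the labels says whether the replicates came from separate cultures, so the spread between them may be partly technical.

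G1 cyclins work as the regulatory subunits of CDKs. D-type cyclins, made in response to cytokine and growth factor signals, activate CDK4 and CDK6, which begin the phosphorylation of the retinoblastoma protein and so release E2F transcription factors. Cyclin E, itself an E2F target, then activates CDK2 and drives entry into S phase. The INK4 proteins, of which p18 is a member, bind CDK4 and CDK6 directly, while the CIP/KIP proteins, such as p27, bind whole cyclin-CDK complexes. In red cell precursors, D cyclins and CDK6 are known to support the rapid divisions of progenitors, and CDK inhibitors to accompany the exit from the cycle during terminal maturation.

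The libraries held 31649878 and 40597614 estimated counts in replicates 1 and 2, and 8513094 and 7669565 of these belonged to nuclear genes annotated as protein coding. Levels are given in TPM, an abundance scaled to transcript length and to the library's total. Because the share of nuclear mRNA differed, the median detected nuclear protein-coding gene had 1.55-fold more TPM in replicate 1. Ranks and shares within a library, and ratios of counts scaled by TMM (trimmed mean of M values), do not carry that shift. All 9 erythroid progenitor markers, among them Kit and Gfi1b, were detected, meaning at least 1 TPM in both libraries. Gata1 itself had 798 and 649 counts (21.96 and 12.51 TPM), which a gene-level count cannot place inside or outside the altered part of the gene. All 6 lymphocyte markers had 0 counts, and the 5 fibroblast and endothelial markers summed to 0.05 and 0.01 TPM. Megakaryocyte markers summed to 25.74 and 15.75 TPM and mast cell and basophil markers to 55.45 and 27.83 TPM, of which Cpa3 made up 51.44 and 24.76 TPM.

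The promoters of the members whose transcript starts or abundance the results turn on are shown first. RefSeq (GRCm38.p6) held promoters for 7 of the 10 members. Each sequence below covers the bases before an annotated start that lie outside annotated exons, on the gene's strand. Capitals mark the E-box CACGTG, a site bound by MYC and related factors. The E2F words TTTCCCGC, TTTCGCGC, TTTGCCGC and TTTGGCGC, the GATA words AGATAA with AGATAG and TGATAA with TGATAG, and the TATA box TATAAA were searched as well, on both strands.

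Cdk4 (chr10:127063285-127063533, plus strand): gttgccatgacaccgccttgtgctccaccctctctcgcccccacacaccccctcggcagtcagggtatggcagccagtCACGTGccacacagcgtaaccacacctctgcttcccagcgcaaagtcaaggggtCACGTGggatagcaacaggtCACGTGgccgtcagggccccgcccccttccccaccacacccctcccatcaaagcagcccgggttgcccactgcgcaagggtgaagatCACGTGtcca
Ccnd3 upstream start (chr17:47504801-47505050, plus strand): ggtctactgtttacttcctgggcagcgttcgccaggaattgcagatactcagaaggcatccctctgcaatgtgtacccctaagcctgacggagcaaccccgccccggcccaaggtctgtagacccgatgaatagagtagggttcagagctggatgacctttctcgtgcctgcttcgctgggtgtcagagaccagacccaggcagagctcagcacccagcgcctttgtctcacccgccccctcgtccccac
Ccnd3 downstream start (chr17:47593217-47593435, plus strand): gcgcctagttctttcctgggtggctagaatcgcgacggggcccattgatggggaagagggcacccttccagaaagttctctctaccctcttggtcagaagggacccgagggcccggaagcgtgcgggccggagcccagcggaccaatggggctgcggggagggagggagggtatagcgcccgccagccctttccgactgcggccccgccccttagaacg
Cdkn2c downstream start (chr4:109665373-109665609, minus strand): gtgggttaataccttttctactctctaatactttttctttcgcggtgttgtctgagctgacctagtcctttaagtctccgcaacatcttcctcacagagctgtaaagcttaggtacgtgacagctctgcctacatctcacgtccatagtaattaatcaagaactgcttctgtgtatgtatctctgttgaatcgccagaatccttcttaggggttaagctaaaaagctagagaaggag

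The Cdk4 promoter held 4 E-boxes, beginning 172, 118, 98 and 11 bases before the start. Of 32817 RefSeq mouse promoters of the same 250 bases, 6.02% held at least 1 E-box and 7 promoters (0.0213%) held 4 or more, a limit chosen after the Cdk4 count was seen. None of the searched words occurred in the full 250 bases before either Ccnd3 start or before the downstream Cdkn2c start. The same held for Ccne1, Cdkn1b and the other RefSeq start of Cdkn2c. Before the Cdk6 start lay 1 E-box, at 220 bases, and 1 TATA box, at 103 bases. Before the Cdk2 start lay 1 E2F word, at 140 bases. The shares of all promoters with a match were 1.86% for the E2F words, 26.6% for the GATA words and 12.4% for the TATA box. The bases before the downstream Cdkn2c start were 42.8% G or C, below the median promoter at 52.4%. Those of them printed above lie in the first intron of Cdkn2c-202, a transcript described below. The bases before the other RefSeq start of Cdkn2c were 77.2% G or C, and all 250 of them lie in annotated exons. These matches describe letters in a window, and binding was not measured.

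Of the 10 genes, 9 were detected and 1, Ccnd1, had no counts. Their order by level was the same in replicates 1 and 2: Cdk4, Ccnd2, Ccnd3, Cdk6, Cdk2, Cdkn1b, Ccne2, Cdkn2c, Ccne1 and Ccnd1. Means over both libraries (± SD, n = 2) were 98.9 ± 39.2 TPM for Cdk4, 57.4 ± 19.5 for Ccnd2, 40.2 ± 13.3 for Ccnd3, 23.2 ± 6.65 for Cdk6, 15.3 ± 4.13 for Cdk2, 14.3 ± 3.74 for Cdkn1b, 10.1 ± 4.06 for Ccne2, 5.85 ± 0.933 for Cdkn2c and 4.39 ± 1.15 for Ccne1. Neighbours in this order were called separate where both libraries gave the same order and the deposited TPM credibility intervals did not overlap in either. By this rule 7 of 9 neighbour pairs were separate. The exceptions were Cdk2 with Cdkn1b and Cdkn2c with Ccne1. The TPM of Ccnd2 lay above its own interval in both libraries, 71.11 against 67.2 to 70.2 and 43.59 against 41.4 to 43.4. In bulk RNA, fewer cells with a transcript and less of it per cell cannot be told apart.

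**Figure D1:**
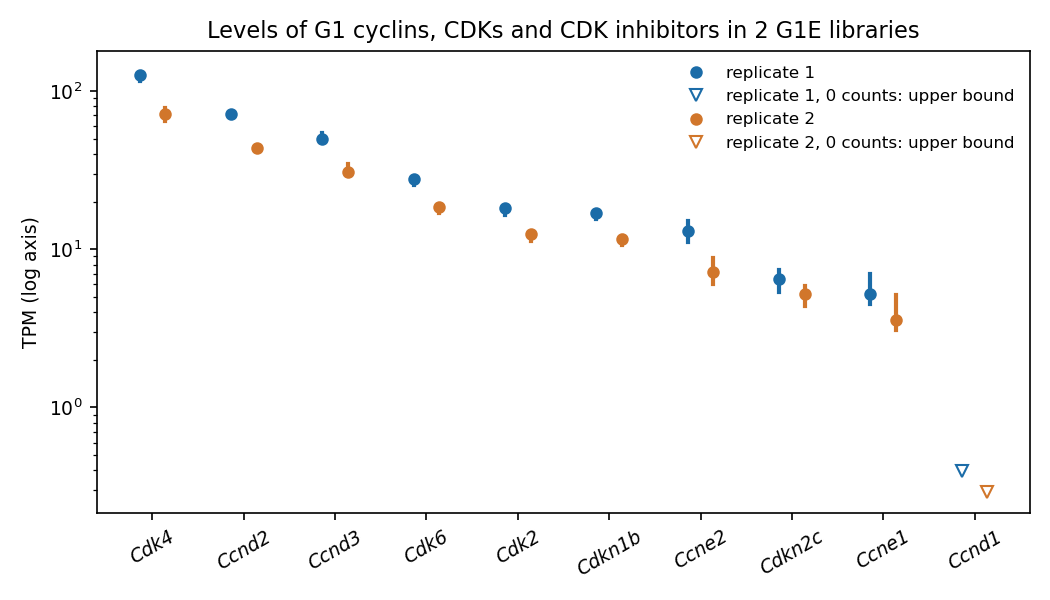
TPM of each gene (log axis) in replicate 1 (blue) and replicate 2 (orange), with the deposited TPM credibility intervals as bars and open triangles for the upper bounds of Ccnd1, which had 0 counts. The TPM of Ccnd2 lies just above its interval in both libraries. The order of the genes is the same in both libraries, from Cdk4 at 126.59 and 71.19 TPM to Ccne1 at 5.20 and 3.57 TPM.

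Among the D cyclins, Ccnd2 and Ccnd3 were abundant and Ccnd1 was not seen. Ccnd2 (ENSMUSG00000000184.9, chromosome 6, 127125162 to 127152193) had 71.11 TPM in replicate 1 and 43.59 TPM in replicate 2, from 8427 and 7150 counts, the most counts of any member. It ranked 425 and 443 among the 8345 detected nuclear protein-coding genes. Ccnd2 is the D cyclin known to respond to cytokine signals in blood cells. Ccnd3 (ENSMUSG00000034165.12, chromosome 17, 47505051 to 47599691), a D cyclin known for its part in setting the number of divisions of erythroid precursors, had 49.57 and 30.76 TPM, ranks 678 and 694.

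Ccnd1 (ENSMUSG00000070348.4, chromosome 7, 144929931 to 144939925), the D cyclin of many epithelial and mesenchymal cells, had 0 counts in both libraries. A count of 0 has a one-sided 95% limit of about 3 counts for counting error. On its coding transcript, 3 counts would be worth 0.0390 TPM in replicate 1 and 0.0282 TPM in replicate 2. The deposited intervals, which spread over a short second transcript as well, reached 0.399 and 0.294 TPM. Ccnd1 was therefore not detectable at this depth. Its neighbour LTO1 on the opposite strand, which overlaps it by 1771 bases, had 76 and 90 counts.

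The makeup of the D cyclins hardly moved between the libraries. Ccnd2 held 58.92% of their summed TPM in replicate 1 and 58.63% in replicate 2 (58.8% ± 0.210, SD, n = 2), and Ccnd3 held the remaining 41.1% and 41.4%. Within a library, Ccnd2 stood 1.43-fold and 1.42-fold above Ccnd3. The share rests on the length scaling: in CPM (counts scaled to the library's total, with no length scaling) Ccnd2 held 80.9%, its transcript being 5701 bases long. Summed over all 3 genes, D cyclins had 120.68 and 74.35 TPM, which was 6.65 and 6.90 times the sum of the E cyclins.

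The E cyclins had the lowest sum of any role, 18.15 and 10.78 TPM, with Ccne2 above Ccne1 in both libraries. Ccne2 (ENSMUSG00000028212.12, chromosome 4, 11191351 to 11204779) had 12.95 and 7.21 TPM from 641 and 457 counts. Ccne1 (ENSMUSG00000002068.12, chromosome 7, 38097984 to 38107534) had 5.20 and 3.57 TPM from 171 and 154 counts. The CDK2 partner encoded by Ccne1 thus made up 28.7% and 33.1% of the cyclin E transcripts (30.9% ± 3.16, SD, n = 2). Ccne1 ranked 5867 and 5796 of 8345, in the lower part of detected genes, while Ccne2 ranked 3174 and 3671.

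Of the kinases, Cdk4 was the most abundant of all members in TPM summed over its transcripts. Cdk4 (ENSMUSG00000006728.8, chromosome 10, 127063534 to 127067920), a catalytic partner of D cyclins, had 126.59 and 71.19 TPM from 3433 and 3075 counts, ranks 207 and 244. Cdk6 (ENSMUSG00000040274.7, chromosome 5, 3341485 to 3531008), the other partner of D cyclins, had 27.85 and 18.45 TPM from 1909 and 1742 counts. Cdk2 (ENSMUSG00000025358.11, chromosome 10, 128697939 to 128705031), the partner of cyclins E and A, had 18.22 and 12.38 TPM from 870 and 821 counts. Every kinase was lower in TPM in replicate 2, as was the median gene.

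Cdk4 held 82.0% and 79.4% of the summed TPM of Cdk4 and Cdk6 (80.7% ± 1.80, SD, n = 2), a level 4.55-fold and 3.86-fold that of Cdk6. Part of the Cdk4 level lay on transcripts that are not annotated as coding, most of it on short ones. Over transcripts annotated as protein coding alone, Cdk4 had 75.36 and 49.89 TPM and stood 2.71-fold and 2.70-fold above Cdk6. On that footing Cdk4 was only 1.06-fold and 1.14-fold above Ccnd2, and the order of the 10 genes did not change. That sum includes shorter coding transcripts, among them the 950-base Cdk4-205 at 15.13 and 5.88 TPM. The full-length Cdk4-201 alone had 59.50 and 42.45 TPM, below Ccnd2 at 71.11 and 43.59 TPM. The first place of Cdk4 thus rests on counting its shorter transcripts. The Cdk6 model behind these values was short: its longer transcript has 3735 bases in the deposited tables and 11525 in GENCODE M21.

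Both inhibitors were below Cdk4 and Cdk6 in each library. Cdkn1b (ENSMUSG00000003031.10, chromosome 6, 134920401 to 134925513), which encodes p27, had 16.96 and 11.67 TPM from 1259 and 1409 counts. Cdkn2c (ENSMUSG00000028551.10, chromosome 4, 109660876 to 109667189), which encodes p18, had 6.51 and 5.19 TPM from 184 and 234 counts. Cdkn1b held 72.3% and 69.2% of their sum (70.7% ± 2.15, SD, n = 2). Within a library Cdkn1b was close to Cdk2, at 0.931 and 0.943 times its TPM, with overlapping deposited intervals. The 3 kinases together had 7.36 and 6.05 times the TPM of both inhibitors. That ratio counts the non-coding Cdk4 transcripts and leaves out inhibitors that are not members. Of those, Cdkn1a (p21) had 44.93 and 30.71 TPM, more than both member inhibitors together, and Cdkn2d (p19) had 2.85 and 5.13 TPM. Cdkn2c was the member whose rank differed most, 5214 in replicate 1 and 4674 in replicate 2.

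Between the libraries, no member differed by 2-fold. For the 9 tested members, rounded counts were set against the TMM library sizes by an exact binomial test (two-sided), adjusted by Benjamini-Hochberg over all 11902 genes tested. The test covers counting error in a pair of libraries and does not compare conditions. With both limits (an adjusted p below 0.05, and a ratio of 2-fold or more), 0 of 9 members passed, where 7.32% of all tested genes passed, 5.12% higher in replicate 2 and 2.2% higher in replicate 1. The edgeR negative binomial exact test, which takes its spread from these same libraries, called 0 members too, and its lowest unadjusted p among them was 0.369. Ratios of replicate 2 over replicate 1 ran from 0.801 to 1.43, and the median log2 ratio of the members was 0.02, beside 0.01 for all genes tested.

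Within that range, 4 members differed beyond counting error. Cdkn1b had a ratio of 1.26 (95% Clopper-Pearson interval 1.16 to 1.36, adjusted p = 5.77e-08 by the exact binomial test) and Cdkn2c one of 1.43 (1.17 to 1.74, adjusted p = 0.00177). Ccne2 had a ratio of 0.801 (0.709 to 0.904, adjusted p = 0.00177) and Ccnd2 one of 0.953 (0.923 to 0.984, adjusted p = 0.0120). Of these 4, both inhibitors were on the side of replicate 2 and both cyclins on the side of replicate 1. The cyclins Ccnd3 and Ccne1 did not pass this limit. Outside the members, the inhibitor Cdkn1a had a ratio of 1.06 (adjusted p = 0.264 by the exact binomial test) and Cdkn2d one of 2.78. At this looser limit, replicate 2 was the higher for 17.5% of all tested genes and replicate 1 for 14.9%, and 2 members stood on each side. Scaled to total counts, the ratio of Cdkn1b turned to 0.872 (adjusted p = 0.000792 by the exact binomial test). Cdkn1b thus passed the adjusted p in the opposite direction. The ratio of Cdkn2c turned to 0.991 (adjusted p = 0.978 by the same test), with the median log2 ratio of all genes at -0.52. Relative to the median gene, which no scaling can change, Cdkn1b was 0.32 and Cdkn2c 0.51 higher in replicate 2 on the log2 scale.

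The other 5 tested members did not pass the adjusted p alone with TMM scaling. Their ratios were 0.996 for Ccnd3 (95% interval 0.933 to 1.06), 1.01 for Ccne1 (0.808 to 1.26), 1.06 for Cdk2 (0.962 to 1.17), 1.01 for Cdk4 (0.958 to 1.06) and 1.02 for Cdk6 (0.960 to 1.09). The interval of Ccne1, which had the fewest counts, was the widest of these. Scaled to total counts, where the median log2 ratio of all genes was -0.52, all 5 passed the adjusted p of the exact binomial test below replicate 1, and Ccne1, Cdk2, Cdk4 and Cdk6 turned direction. Those ratios were 0.692 for Ccnd3, 0.702 for Ccne1, 0.736 for Cdk2, 0.698 for Cdk4 and 0.711 for Cdk6, none of them past the 2-fold limit.

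**Figure D2:**
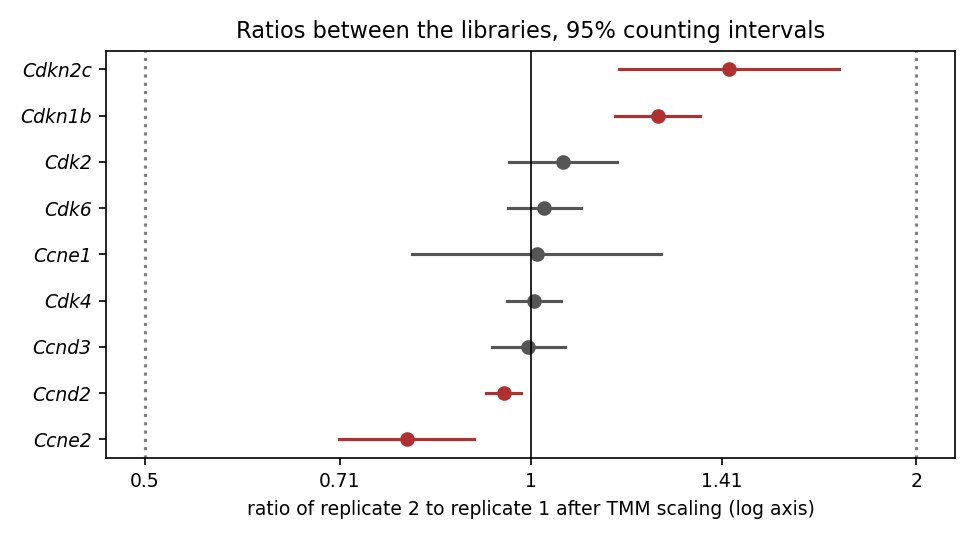
Ratio of replicate 2 to replicate 1 after TMM scaling (log axis) for the 9 tested members, with 95% Clopper-Pearson intervals for counting error; red marks an adjusted p under 0.05 and dotted lines the 2-fold limits. All 9 lie inside the limits, from Ccne2 at 0.801 to Cdkn2c at 1.43.

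Erythroid maturation markers separated the same libraries far more widely. Of 10 such markers, 8 were at least 2-fold higher in replicate 2 and 0 in replicate 1, and their summed level was 198.53 TPM in replicate 1 and 1547.5 TPM in replicate 2. Slc4a1, the red cell anion exchanger, had 115 and 10387 counts. Of 10 proliferation markers 0 passed the 2-fold limit in either direction, with Mki67 at a ratio of 1.31 and Mcm3 at 0.910. Whether the maturation genes have a part in the ratios of Cdkn1b and Cdkn2c was not tested.

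Transcript estimates showed where these genes differ in structure. The tables list 53 transcripts of the 10 genes, of which 37 had counts in at least 1 library. Bounds on each transcript's share were formed from the deposited TPM intervals, the transcript at its limit and the others at their opposite limits. Of the 8 detected members with several transcripts, 1 had shares whose bounds were apart in the libraries, beside 9.46% of 6303 detected nuclear protein-coding genes with several transcripts. That gene was Cdkn1b.

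Cdkn1b has a pair of listed transcripts with the same start, end and coding sequence of 197 codons. They differ by 2159 bases of the 3' untranslated region (chromosome 6, 134922084 to 134924242), which are exonic in Cdkn1b-202 and intronic in Cdkn1b-201. Outside those bases both forms are spliced, Cdkn1b-202 being 4552 bases long between 134920401 and 134925513. Cdkn1b-201 held 43.5% of the gene's TPM in replicate 1 (bounds 37.8 to 49.2) and 14.97% in replicate 2 (9.20 to 21.02). It had 356.78 and 116.62 counts, while Cdkn1b-202 had 902.22 and 1292.38. Scaled by TMM, the count ratio of replicate 2 over replicate 1 was 1.61 for Cdkn1b-202 and 0.367 for Cdkn1b-201, with no test of either. In TPM, which carries the shift of the median gene, Cdkn1b-202 had 9.58 and 9.92 and Cdkn1b-201 had 7.38 and 1.75.

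Cdkn2c has a pair of transcripts that start 1817 bases apart and share the coding sequence. Cdkn2c-202 begins upstream with a first exon of 1580 bases, and Cdkn2c-201 begins at the downstream start whose promoter is printed above. The upstream form held 24.98% in replicate 1 and 40.35% in replicate 2 (32.7% ± 10.9, SD, n = 2), from 81.25 and 144.57 counts. The bounds, 17.7 to 34.1 and 31.1 to 50.7, overlapped. The downstream form had 4.88 and 3.10 TPM and the upstream form 1.63 and 2.09 TPM. Their deposited intervals were apart in replicate 1 and overlapped in replicate 2, at 2.35 to 3.75 and 1.70 to 2.41 TPM.

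Ccnd3 also starts in separate places, 88195 bases apart. The 13 transcripts of the upstream group begin between 47505051 and 47505241 and the 8 of the downstream group between 47593436 and 47597164. The upstream group held 31.9% of the gene's TPM in replicate 1 and 31.3% in replicate 2, and the downstream group the rest. The leading transcript of each, Ccnd3-201 and Ccnd3-205, encodes the same 292 codons. Their share bounds were wide: 8.50 to 42.7% and 7.82 to 36.9% for Ccnd3-201, and 38.3 to 85.9% and 38.9 to 82.98% for Ccnd3-205. Transcripts annotated as retained introns held 4.14% and 7.05% of the gene.

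Cdk2 was divided between forms that differ in protein. Cdk2-202 carries an extra coding exon of 144 bases (48 codons, chromosome 10, 128699976 to 128700119) and encodes 346 codons against 298 in Cdk2-201. It held 53.6% and 63.0% of the gene's TPM (58.3% ± 6.64, SD, n = 2), and its bounds of 44.7 to 63.8 and 53.2 to 73.1 overlapped. The forms were not separate in replicate 1, where the deposited TPM intervals, 7.89 to 11.2 for the longer and 6.35 to 9.76 for the shorter, overlapped. In replicate 2 the longer form was above, at 6.41 to 8.79 against 3.24 to 5.63 TPM. Cdk6 was divided 69.2% and 68.4% for Cdk6-202 against the shorter Cdk6-201, which encodes the same 326 codons and ends earlier in the 3' untranslated region.

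For Cdk4, the full-length coding transcript Cdk4-201 held 47.0% and 59.6% of the gene's TPM (bounds 37.2 to 58.5 and 45.5 to 72.6). Transcripts annotated as retained introns held 34.4% and 29.9%, most of it on the 468-base Cdk4-209 with 24.6% and 19.6%. An annotated target of nonsense-mediated decay, Cdk4-208, had 131.19 counts in replicate 1 and 0 in replicate 2, and its share bounds, 2.33 to 10.7% and up to 3.87%, overlapped. Short transcripts weigh heavily in TPM: Cdk4-209 took 234.51 and 140.99 counts against 2447.34 and 2408.52 for Cdk4-201. The retained intron Cdk4-207, at 2038 bases nearly as long as Cdk4-201, took 264.77 and 294.35 counts but only 6.49 and 5.23 TPM. The Tspan31 gene on the opposite strand overlaps Cdk4 by 641 bases and had 968 and 938 counts. The strand setting of the counting was not given in the sources used here, and reads in that overlap are uncertain.

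**Figure D3:**
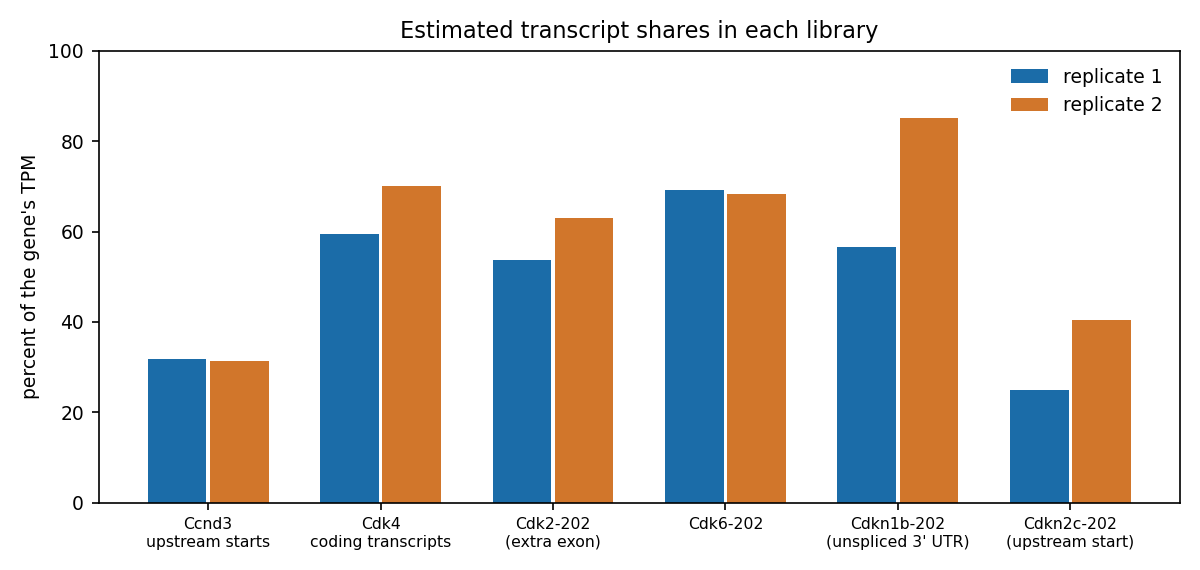
Share of the gene's TPM (percent) in replicate 1 (blue) and replicate 2 (orange) for 6 transcripts or transcript groups. Cdkn1b-202 stands at 56.5% and 85.0%, the widest difference of those drawn, while the upstream Ccnd3 starts stand at 31.9% and 31.3%.

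In TPM shares, the E cyclins were spread over several forms at low counts. In counts, Ccne1-201 took 161.72 and 140.03 of the 171 and 154 counts of Ccne1. The 462-base Ccne1-205 held 18.5% and 5.97% of that gene's TPM from 7.12 and 2.12 counts. Ccne1-201, with 408 codons, held 77.7% and 71.04% of Ccne1, and the coding Ccne2-202 and Ccne2-201 held 51.6% and 53.4%, and 26.5% and 20.3%, of Ccne2. Their bounds were wide and overlapped between the libraries: 43.02 to 98.05% and 34.2 to 95.3% for Ccne1-201, and 19.8 to 79.5% and 18.5 to 87.2% for Ccne2-202. Ints8, on the opposite strand, overlaps Ccne2 by 5622 bases and had 804 and 729 counts, more than Ccne2 itself. Ccnd2 had a single transcript in the tables. Bysl overlaps the end of Ccnd3 by 361 bases (195 and 120 counts) and Pmel the start of Cdk2 by 837 bases (5 and 5 counts), both on the opposite strand.

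Around the 10 genes, 42 other genes of G1 and S phase control were measured, and 37 were detected. Of 38 tested, 2 were at least 2-fold higher in replicate 2 and 0 in replicate 1, beside 5.12% and 2.2% of all tested genes, and their median log2 ratio was 0.04. Their share was near that background. Cdkn2d, the INK4 inhibitor p19, had 70 and 173 counts (2.85 and 5.13 TPM), a ratio of 2.78 (95% interval 2.09 to 3.72, adjusted p = 8.89e-13 by the exact binomial test). E2f2, an E2F activator, had 424 and 1030 counts (6.19 and 9.35 TPM), a ratio of 2.73 (2.43 to 3.06, adjusted p = 1.13e-72). By the edgeR negative binomial exact test neither passed, and with libraries scaled to total counts neither did. The maturation markers given above move with them, and their part was not tested.

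Among the other CDK inhibitors, Cdkn1a (p21) was the most abundant at 44.93 and 30.71 TPM, above both Cdkn1b and Cdkn2c in each library. Cdkn2d followed at a much lower level. The remaining 3, Cdkn1c (p57), Cdkn2a and Cdkn2b (p15), were under 1 TPM in both, with 0, 0 and 3 counts in replicate 1 and 0 in replicate 2. Detected inhibitor transcripts of this family were therefore those of Cdkn1a, Cdkn1b, Cdkn2c and Cdkn2d.

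The partners later in the cycle were led by Ccna2 (cyclin A2) at 104.84 and 54.42 TPM and Ccnb1 (cyclin B1) at 58.60 and 36.93 TPM, and 0 of 4 tested genes of that group passed. The fifth, Ccna1, had 0 counts. In the CDK-activating kinase, Ccnh (cyclin H) had 28.29 and 14.79 TPM and Mnat1, its assembly factor, 7.08 and 4.96 TPM, and 0 of 3 passed. Of the enzymes that set the inhibitory phosphorylation of CDK1 and CDK2, the kinase Wee1 had 14.91 and 9.17 TPM and the phosphatase Cdc25b 2.92 and 11.51 TPM. The Cdc25b count ratio of 2.00 (1.66 to 2.41, from 179 and 318 counts) fell just short of the 2-fold limit, and 0 of 5 passed. In TPM, which also depends on transcript lengths, Cdc25b differed more widely, with replicate 1 at 0.254 times replicate 2. The cause of that gap was not tested.

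Of the targets of the kinases, Rb1, the retinoblastoma protein gene, had 81.25 and 52.68 TPM and Rbl1 (p107) 20.16 and 13.06 TPM, and 0 of 3 in this family passed. Among the E2F and DP factors, Tfdp1, the shared DP partner, had 58.94 and 37.99 TPM and E2f4 39.66 and 27.17 TPM. All 10 of these were detected and 1, E2f2, passed. In the machinery that degrades p27 and cyclins, the scaffold Cul1 had 42.39 and 24.85 TPM and the adaptor Skp1a 30.02 and 15.96 TPM. Of its 11 genes 0 passed.

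**Figure D4:**
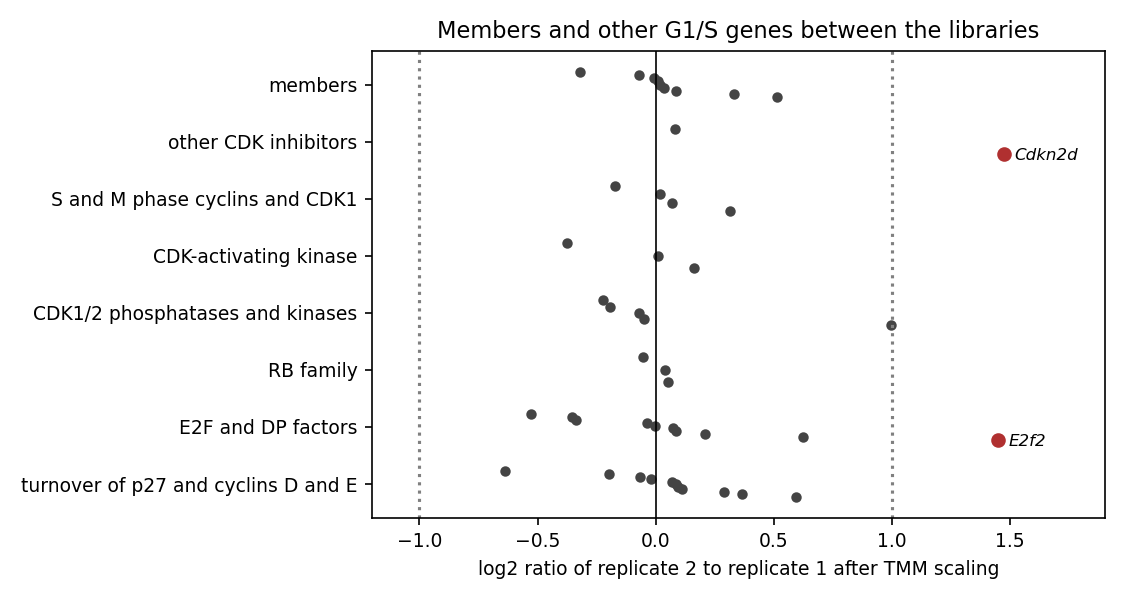
Log2 ratio of replicate 2 to replicate 1 after TMM scaling for the 9 tested members and 38 other tested G1/S genes by role, with dotted lines at the 2-fold limits. Cdkn2d and E2f2 (red) are the genes past the limit, with ratios of 2.78 and 2.73.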

How the data were processed

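Per the file headers, the deposited tables hold expected counts (estimated counts without normalisation), TPM as maximum-likelihood and posterior mean estimates, FPKM, credibility bounds of TPM (other columns) and, per transcript, the percent of the gene's TPM. The deposited file records name mm10 with GENCODE M4, whereas aligner, quantification program and versions were not given in the sources used here. GENCODE M21 (GRCm38, equal to mm10) supplied gene names, types and positions, matched for 42462 of 43346 genes, and spike-ins and numbered entries were left out of tests.

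Counts were rounded, and genes with at least 10 over both libraries were tested against the ratio of TMM effective sizes (edgeR 4.0.16, R 4.3.3; SciPy 1.17.1) with an exact binomial test and Benjamini-Hochberg adjustment. Medians of log2 ratios used 0.5 added counts. The test was checked on data simulated with counting error alone. That check cannot show how the test behaves where libraries spread further. Intervals and floors cover counting error only, and reads without molecular identifiers are not independent molecules. With totals of 31649878 and 40597614 counts, the limit of 3 counts at a count of 0 equals 0.0948 and 0.0739 CPM.

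The members and the lists were chosen with earlier results of these data known. All members are named, and of each role group the 2 genes with the highest mean TPM and those that passed. Alternatives were other scalings (DESeq2 1.42.0, total, coding and spike-in counts), filters, no fold limit, other level estimates, a negative binomial test and leaving out a library. The share bounds and the coding-only sums were added after the data were seen.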

Additional observations from a re-analysis of the deposited data

How the results depend on the processing

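No paired analysis was possible because the labels give 1 group, and the comparison of libraries cannot be made without either of them. Among the tested members, 0 passed in either direction except with no fold limit (2 higher in replicate 2 and 2 in replicate 1) and with spike-in scaling (9 higher in replicate 1). Other G1/S genes numbered 2 higher in replicate 2 and 0 in replicate 1, but 0 and 2 with total counts, 0 and 38 with spike-ins, 8 and 6 with no fold limit, and 0 higher in replicate 2 with the negative binomial test. All genes gave 609 and 262, but 396 and 1024 with total counts, 36 and 11608 with spike-ins, 225 and 35 with at least 100 counts, 2077 and 1771 with no fold limit, and 263 and 33 with the negative binomial test. The cause was not tested. Total and spike-in counts moved the median log2 ratio of all genes to -0.52 and -4.49. The spike-in totals were 514 and 10351 counts, with the added amount not analysed here.

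Without length scaling (CPM) the shares became 80.9% for Ccnd2, 23.1% for Ccne1, 64.1% for Cdk4 and 86.5% for Cdkn1b. The share of Ccnd2 was 56.9% by posterior mean TPM and 60.2% over coding transcripts, where Cdk4 was 73.0%. The median level over members, 14.8 TPM, became 89.5 when rescaled to nuclear protein-coding genes. Leaving out each library gave 12.025 to 17.6 TPM for that median, 58.6% to 58.9% for Ccnd2, 28.7% to 33.1% for Ccne1, 79.4% to 82.0% for Cdk4, 69.2% to 72.3% for Cdkn1b, and 56.5% to 85.0% for Cdkn1b-202 and 25.0% to 40.4% for Cdkn2c-202. Depth limits Ccnd1, Ccne1 and Cdkn2c most.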
